A study of Mus musculus with 14 samples.

Results

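The genes described here are 171 developmental transcription factor genes of 11 families (Hox, Pax, Sox, Tbx, Gata, Lhx, Nkx, Dlx, Irx, Fox and the sine oculis family), measured by RNA sequencing in mouse bone marrow-derived macrophages with and without the histone methyltransferase Ezh2. They were matched by a name pattern among the 25239 gene symbols of the deposited count table, so that genes without a single count were kept. The pattern was set with earlier results of these data known. The 14 libraries fall into 4 groups. WT control (4 libraries) and WT CM (4 libraries) came from littermate control mice, for which the labels do not say whether they carry Cre. KO control (3 libraries) and KO CM (3 libraries) came from Ezh2fl/fl;LysM-Cre+/- mice, in which the Cre recombinase is driven by the lysozyme M promoter, active in myeloid cells, so that Ezh2 is lost as the cells take on the myeloid fate and not in the early embryo. All cultures were grown from marrow for 7 to 10 days in DMEM with medium conditioned by L929 cells, a source of macrophage colony-stimulating factor. They were then kept for 24 h in complete DMEM (control medium) or in medium conditioned by Hepa1-6, a mouse liver cancer line (CM). The labels used here give neither the age and sex of the mice nor which libraries came from one mouse, so the tests measure the spread between libraries.

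Ezh2 is the catalytic subunit of Polycomb repressive complex 2 (PRC2), which methylates histone H3 at lysine 27 and keeps genes silent. In embryonic cells the genes of these families, which lay down the body axis and specify organs, are the best known targets of PRC2, and many start in CpG-rich promoters that PRC2 occupies. Not all members fit that description: several Fox genes, such as Foxo3, Foxp1, Foxj2 and Foxk1, act in most adult cells, and the name pattern also takes Nkx2-2os, a noncoding RNA gene, which had no count. No mark of chromatin was measured here.

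Of the 171 members, 83 had no count in any library (48.5%, against 27.2% of all symbols in the table), 61 had counts but stayed under the filter on low values, and 27 were tested. Of the 39 Hox genes, 24 (61.5%) had no count. All 9 genes of the Hoxd cluster were silent, as were 7 of 9 in Hoxc, 6 of 10 in Hoxb and 2 of 11 in Hoxa. No count was found for 11 of 15 Nkx, 9 of 19 Sox, 6 of 9 Pax, 4 of the 6 sine oculis genes, 4 of 6 Irx, 14 of 44 Fox, 3 of 6 Gata, 3 of 8 Lhx, 3 of 13 Tbx and 2 of 6 Dlx genes. The 61 genes under the filter had between 1 and 85 counts over the 14 libraries together, with a median of 4, and 29 of them had at most 3. Together the members held 0.0353 to 0.0496% of a library's counts.

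Promoters of 4 members are shown because they span the range from silent to expressed: Hoxd13, without a count, Hoxa7, with a few counts, and Hoxb4 and Sox4, which were among the members with the highest level per length in their families. Each is the 250 bases before an annotated start, 5′ to 3′ on the gene's strand, from RefSeq on GRCm38.p6, with every CG dinucleotide in capitals. Hoxd13 lies on the plus strand at chr2:74667975-74668224, Hoxa7 on the minus strand at chr6:52218574-52218823, Hoxb4 on the plus strand at chr11:96318017-96318266 and Sox4 on the minus strand at chr13:28953700-28953949.
Hoxd13: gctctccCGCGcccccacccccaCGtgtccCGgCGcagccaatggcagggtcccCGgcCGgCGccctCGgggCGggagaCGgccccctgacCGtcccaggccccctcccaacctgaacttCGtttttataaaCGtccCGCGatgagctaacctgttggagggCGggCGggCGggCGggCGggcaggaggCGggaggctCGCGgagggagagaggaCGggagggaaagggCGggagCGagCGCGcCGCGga
Hoxa7: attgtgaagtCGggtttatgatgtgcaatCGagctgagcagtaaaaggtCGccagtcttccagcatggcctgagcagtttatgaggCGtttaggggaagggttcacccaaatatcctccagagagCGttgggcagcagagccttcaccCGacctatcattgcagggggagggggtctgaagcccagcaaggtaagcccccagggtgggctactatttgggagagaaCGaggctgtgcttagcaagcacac
Hoxb4: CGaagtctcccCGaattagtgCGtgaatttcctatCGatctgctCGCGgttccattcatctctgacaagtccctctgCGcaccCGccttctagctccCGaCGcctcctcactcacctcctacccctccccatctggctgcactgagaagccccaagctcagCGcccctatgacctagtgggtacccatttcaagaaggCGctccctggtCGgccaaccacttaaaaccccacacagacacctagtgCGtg
Sox4: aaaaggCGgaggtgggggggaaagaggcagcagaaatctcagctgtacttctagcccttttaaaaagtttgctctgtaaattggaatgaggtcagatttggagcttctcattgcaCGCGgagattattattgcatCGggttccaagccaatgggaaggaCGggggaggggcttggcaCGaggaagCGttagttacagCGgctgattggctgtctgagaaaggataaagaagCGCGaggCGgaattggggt

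The silent Hoxd13 had the densest promoter of the 4, with 31 CG dinucleotides, against 7 in Hoxa7, 14 in Hoxb4 and 11 in Sox4. RefSeq entries were matched for 112 of the 171 members. A promoter was called CpG-rich when its ratio of observed to expected CG was at least 0.6 and its GC content at least 50%. Where a gene had several entries, the entry with the highest such ratio was used, also for the 4 shown and for all genes. This choice can raise the shares. By that rule 34 of 56 silent members (60.7%), 64.9% of those under the filter and 68.4% of those tested were CpG-rich. Over all genes of the promoter table the share was 33.6%, and over the genes of the count table without a count it was 10.3%. By this measure the silent members lay near the expressed members and apart from the silent genes of the whole table. This describes base composition only.

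The libraries held 40.2 to 85.8 M counts over distinct exons. WT libraries 3 and 4 of both media were the deepest (80.4 to 85.8 M, against 40.2 to 61.5 M in the other 10) and stood apart from WT libraries 1 and 2, so results that differ between these pairs are given for each. As a check of the genotype, the Ezh2 exons of 81 and 85 bp were read against the other Ezh2 exons. Their counts per base were 1.9 to 29.3% of those of the others in every KO library and 86.1 to 156% in every WT library. Over the whole gene, Ezh2 was lower in KO CM than in WT CM (log2 fold change -0.40 ± 0.10 (SE), adjusted p = 0.0318). Between the genotypes in control medium it was not called (-0.31 ± 0.10, adjusted p = 0.0741). All 8 macrophage markers were detected. Their summed level was 29408 to 35762 CPM (counts per M counts of the scaled library) in WT and 19246 to 22029 CPM in KO libraries, and the 1 of the 8 that was called was Lyz2, the gene that carries the LysM-Cre insertion (-1.10 ± 0.07 in control medium). Of 10 hepatoma markers, Alb, Ahsg, Fgb, Serpina1a and Gpc3 were at 0 in all libraries, the list summed to 4.33 to 7.44 CPM, and Afp was called higher in KO control (0.58 ± 0.16, adjusted p = 0.0444). Of the T cell markers Cd3d and Cd3g were at 0, but the list summed to 65.1 to 249.8 CPM, and Il7r was called lower in KO control (-0.49 ± 0.13, adjusted p = 0.042). The B cell list summed to 174.5 to 219.9 CPM with Ebf1 at 0 and no call between genotypes, and the fibroblast list to 0.0996 to 1.87 CPM. Mast cell markers, 5 of 7 at 0, summed to 2.07 to 3.53 CPM in WT control and 1.04 to 1.53 in KO control libraries, where Kit was called lower (-1.42 ± 0.28, adjusted p = 0.00888). Summed erythroid markers were higher in KO control (0.894 to 1.13 CPM) than in WT control libraries (0.195 to 0.381), and megakaryocyte markers higher in KO CM (94.4 to 134.7 CPM) than in WT CM libraries (51.6 to 82.5); their part in the results on the members was not tested.

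The first question for these genes was whether more of them were detected without Ezh2. Because deeper libraries show more rare transcripts, each library was scaled to the smallest total, 40.2 M counts, and the number of members expected to keep at least 1 count was computed. In control medium this number was 39.8, 38.6, 46.1 and 51.1 in WT and 46.3, 39.5 and 44.7 in KO libraries. The groups overlapped, with means of 43.9 and 43.5. In CM it was 36.9, 45.2, 48.4 and 43.5 in WT and 41.0, 39.2 and 38.8 in KO libraries, with means of 43.5 and 39.7. The KO libraries lay inside the WT range there too. Over all genes the same depth gave 14855 to 15286 genes in WT control, 14973 to 15191 in KO control, 14901 to 15154 in WT CM and 14736 to 14855 in KO CM libraries, so in CM fewer genes of any kind were detected in KO. In control medium the higher WT values were those of libraries 3 and 4, while in CM library 2 lay above library 4. Across both media WT libraries 3 and 4 had 43.5 to 51.1 members. WT libraries 1 and 2 had 36.9 to 45.2, and the KO libraries 38.8 to 46.3. With at least 3 counts as the limit, the means were 30.8 in WT control, 32.1 in KO control, 31.2 in WT CM and 31.1 in KO CM.

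**Figure D1:**
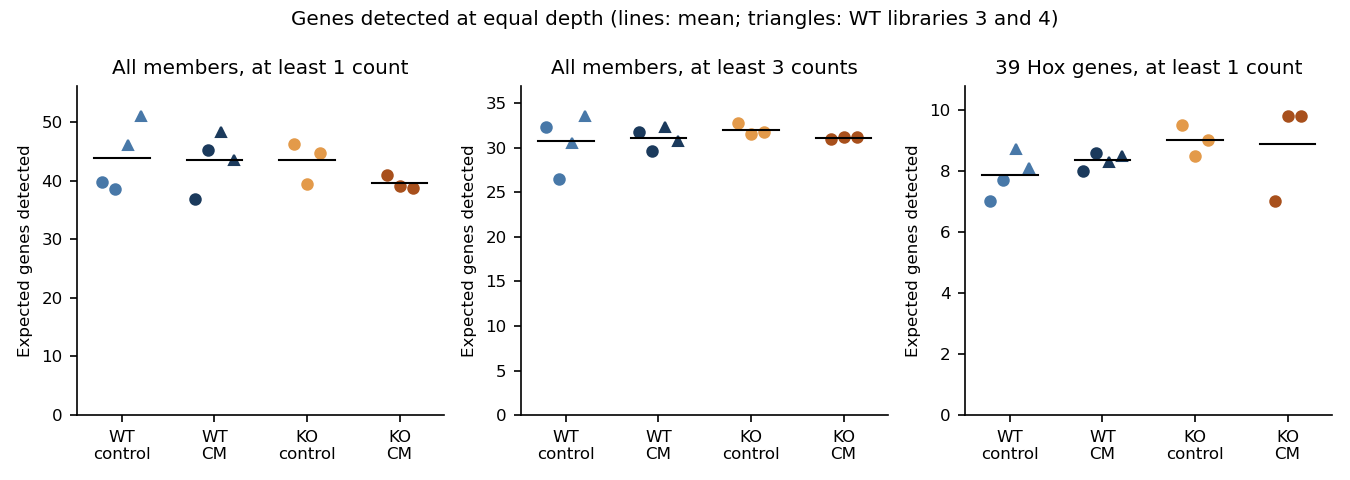
Expected number of members (left and middle panels, at least 1 and at least 3 counts) and of Hox genes (right panel) detected in each library after scaling to 40.2 M counts, by group; lines are means and triangles are WT libraries 3 and 4. The KO libraries lie within the WT range for all members with at least 1 count, and for Hox genes KO control libraries (8.5 to 9.5) reach above WT control libraries (7.0 to 8.7).

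Adding up the libraries of a group gave more depth. At 120.7 M counts, 63.0 members were detected in WT control, 60.3 in WT CM, 55.5 in KO control and 48.7 in KO CM. Depth was made equal, but the number of libraries pooled was 4 in WT, 3 in KO and 2 in each WT pair below. The effect of that number was not tested. The order of the genotypes in control medium rested on WT libraries 3 and 4, and that in CM did not: at 88.9 M counts WT libraries 1 and 2 had 46.8 members in control medium and 51 in CM, WT libraries 3 and 4 had 60.3 and 57.2, and KO had 52.8 and 46.7. No member under the filter had a count in every library of one genotype in a medium and none in the other genotype. For a silent gene, a count of 0 allows up to 3 counts over a group, which is 0.0114 CPM in WT control, 0.0123 in WT CM, 0.0192 in KO control and 0.0205 in KO CM. These limits and the intervals below cover counting error only.

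The Hox genes, which encode homeodomain proteins that give positional identity along the body axis, had few expressed members. Hoxb4, a regulator of blood stem cell self-renewal, had the highest level per length, 1.27 CPM per kb over all libraries, and Hoxb3 had 0.312 and Hoxa4 0.174. All 3 belong to the anterior parts of their clusters. The posterior genes numbered 9 and above had 1 count each for Hoxa9, Hoxa10 and Hoxc10 and none for the others.

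**Figure D2:**
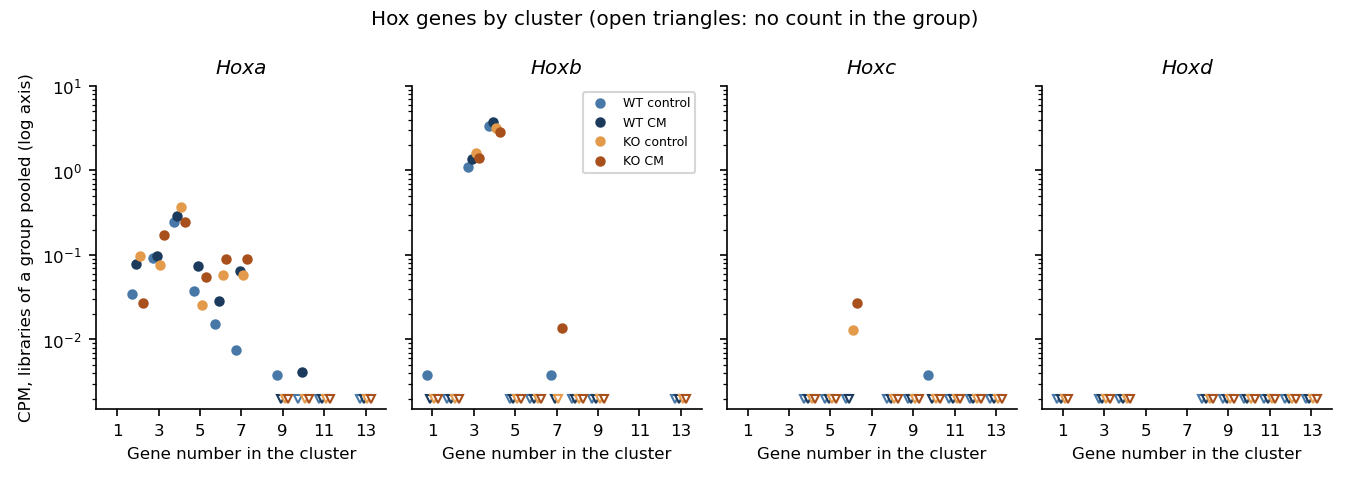
Level of the Hox genes reported here in the 4 clusters, in CPM over the pooled libraries of each group on a log axis, against its number in the cluster; open triangles at the bottom stand for no count in that group. Hoxb3 and Hoxb4 lie above 1 CPM in all 4 groups, Hoxa2 to Hoxa7 lie below them, and the Hoxd panel holds no expressed gene.

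Hoxb4 was measured at 2.48, 3.23, 3.46 and 3.73 CPM in WT control, 3.16, 3.43, 4.16 and 3.95 in WT CM, 3.58, 2.96 and 2.92 in KO control and 2.64, 2.74 and 3.09 in KO CM libraries. The groups overlapped in control medium, and in CM the KO libraries lay below all WT libraries. Neither difference passed the test (log2 fold change KO against WT -0.04 ± 0.15 (SE), adjusted p = 0.9, and -0.38 ± 0.15, adjusted p = 0.158). Hoxb3 was at 0.63, 1.55, 1.01 and 1.2 CPM in WT control and 1.49, 1.95 and 1.4 in KO control libraries. Its difference of 0.56 ± 0.25 did not pass either (adjusted p = 0.18), and the groups overlapped. With the replicate number of the WT libraries as a block it was called (1.1 ± 0.30, adjusted p = 0.0401). That fit sets KO against the level of WT library 1, the lowest in WT control (0.63 CPM), and not against the WT mean. That fit therefore cannot decide this difference. Hoxb3 was also called higher in KO control by limma-voom (0.55, adjusted p = 0.0363) and by edgeR on the most-counted exon of each gene (0.79, adjusted p = 0.0213). In all it was called in 3 of 28 alternatives. In CM, Hoxb3 was at 1.08, 1.4, 1.42 and 1.4 CPM in WT and 1.65, 1.57 and 1.11 in KO libraries. Hoxa4 ranged from 0.125 to 0.491 CPM with overlap between all groups. Counts of Hoxb3 and Hoxb4 lie on overlapping annotations and may not be fully separated, since the strand setting of the counting is not given in the sources used here.

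The 11 Hox genes with counts under the filter were summed. In control medium the sum was 0.174, 0.157, 0.255 and 0.190 CPM in WT and 0.437, 0.263 and 0.272 in KO libraries. The KO libraries lay above all WT libraries, but only just: KO control library 2 had 15 counts (0.263 CPM) and WT control library 3 had 21 (0.255 CPM). Of single tested genes, 21.8% did not overlap in this comparison. In CM it was 0.526, 0.345, 0.289 and 0.317 in WT and 0.482, 0.489 and 0.448 in KO libraries, with overlap. The KO control sum rested on 51 counts and the WT control sum on 53 from more libraries and deeper ones. Summed over all 61 members under the filter, no such order was seen: 0.45 to 1.25 CPM in WT control and 0.877 to 1.05 in KO control libraries.

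Hoxa7 had the largest difference in detection between genotypes among members with at least 30 counts in control medium. It had 0, 0, 1 and 1 counts in WT control and 4, 4 and 1 in KO control libraries, 0, 2, 5 and 9 in WT CM and 0, 10 and 3 in KO CM libraries. In control medium the ratio of KO to WT was 7.59, with a 95% counting interval of 1.57 to 72.2. Fitted without the filter, the difference was 2.62 ± 1.22 on the log2 scale and was not called (adjusted p = 0.245). In CM the 2 genotypes overlapped, and the ratio was 1.35 (0.599 to 3.0). Hoxa6, whose annotation overlaps Hoxa3 and Hoxaas3, had 9 counts in KO control and 4 in WT control, and 13 against 7 in CM. In CM the KO libraries lay above the WT libraries in CPM, but only just. KO CM library 1 (0.0761 CPM) and WT CM library 1 (0.0752 CPM) had 3 counts each. Of all tested genes, 20.9% did not overlap there. Over both media the ratio for Hoxa6 was 3.35 (1.56 to 7.66), and 1.9 (0.785 to 5.28) with WT libraries 1 and 2 alone. Hoxc6, chosen after its values were seen, had no count in 8 WT libraries and 6 counts in 4 of 6 KO libraries. The lower limit of the 95% counting interval of its ratio of KO to WT was 1.97, and 0.713 with WT libraries 1 and 2 alone. Its fit without the filter was not called in either medium (adjusted p = 0.383 and 0.249). Other Hox genes under the filter did not all go this way. For Hoxa2 the ratio of KO to WT was 2.81 (1.15 to 7.29) in control medium and 0.351 (0.0868 to 1.06) in CM. Over both media it was 0.719 (0.333 to 1.46) for Hoxa5 and 1.29 (0.819 to 2.03) for Hoxa3.

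In the other families under the filter, low counts went both ways too. Tbx2, a T-box repressor, had 3, 1, 7 and 4 counts in WT control and 7, 11 and 1 in KO control libraries. In CM it had 2, 2, 6 and 0 in WT and 11, 4 and 5 in KO libraries, without overlap in CPM but only just (0.0788 at most in WT, 0.083 at least in KO). Over both media the ratio of KO to WT was 2.62 (1.54 to 4.51), and the fits without the filter were not called (adjusted p = 0.522 and 0.307). Gata3, the factor of T helper 2 and innate lymphoid cells, went the other way. It had 4, 2, 5 and 5 counts in WT control and 3, 0 and 2 in KO control libraries. In CM it had 6, 3, 4 and 16 in WT and 5, 3 and 0 in KO libraries. Over both media its ratio of KO to WT was 0.485 (0.24 to 0.914), and it was not called (adjusted p = 0.661 and 0.593). Among members with at least 30 counts, Six5 had the largest difference in detection between genotypes in CM, with 0, 3, 4 and 1 counts in WT and 0, 0 and 5 in KO libraries, and 4, 0, 4 and 9 against 4, 5 and 3 in control medium. Gata4, a factor of heart and endoderm, showed the split within WT: it had 0 counts in WT libraries 1 and 2 of both media and 6, 6, 10 and 5 in WT libraries 3 and 4, while KO libraries had 0 to 4.

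The highest remaining members reported here were weak. Gata2, which maintains blood progenitors, had 21 counts in all, Irx5 16, Lhx8 20, Dlx2 3, Pax3 3 and Nkx3-2 3. Of the Lhx8 counts, 11 came from WT control library 4 alone, and all 3 of Pax3 from WT control library 1. Of the 14 Sox9 counts, 8 came from KO control library 3. Gata1, Pax5 and Tbx5, which specify red cells, B cells and the forelimb and heart, were among the silent genes.

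KO was then compared with WT over the 27 tested members. In control medium 1 member was called higher and 0 lower at an adjusted p below 0.05 (edgeR, quasi-likelihood test, Benjamini-Hochberg over 13311 genes). This is 3.7% of the members, and 5.49% of all tested genes were called (2.85% higher, 2.64% lower). Of those calls 52.0% were higher in KO, and 76.6% with scaling by library totals only. In CM 1 member was called higher and 0 lower, with 4.61% of all tested genes called (3.13% higher, 1.49% lower). The member was Foxm1 in both media, so of the Hox, Sox, Pax, Lhx, Nkx and Tbx genes tested none was called. The shares called were near the background, and the medians of the members, -0.07 in control medium and -0.04 in CM, lay beside 0.001 for all genes in both. The groups did not overlap for 4 members in control medium (Foxm1, Sox4, Foxj3 and Foxp3) and 7 in CM (Foxm1, Sox4, Foxk2, Foxp4, Foxd2, Hoxb4 and Pax6), where 21.8% and 20.9% of all genes did not overlap.

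**Figure D3:**
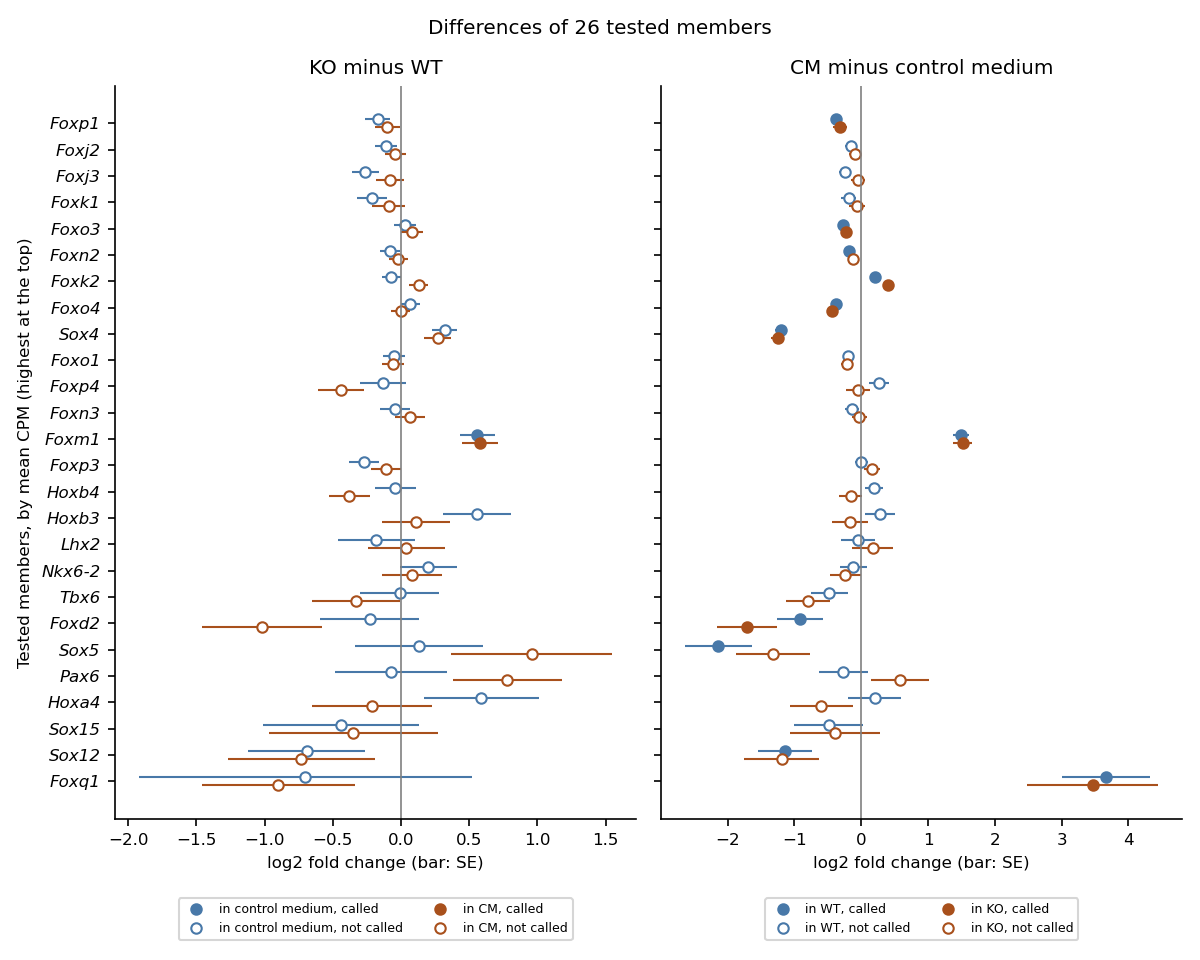
Log2 fold change with SE of the tested members reported here, ordered by mean CPM, for KO against WT (left) and CM against control medium (right); filled points were called and open points were not. On the left Foxm1 is the filled gene in both media, and on the right Sox4 and Foxm1 lie at -1.2 and 1.5 in WT.

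Foxm1, which drives genes of the G2 and M phases of the cell cycle, was at 3.91, 4.25, 3.15 and 4.65 CPM in WT control and 5.91, 5.52 and 6.23 in KO control libraries. In CM it was at 10.7, 13.1, 10.6 and 10.8 in WT and 15.8, 15.1 and 19.5 in KO libraries. All KO libraries lay above all WT libraries of the same medium. Foxm1 rose in KO by 0.56 ± 0.13 on the log2 scale in control medium (1.48-fold, adjusted p = 0.0266) and by 0.58 ± 0.13 in CM (1.49-fold, adjusted p = 0.0172). The first call was lost without KO control library 1, 2 or 3 or WT control library 3, or when the 2 groups were fitted alone (adjusted p up to 0.103), and the second without KO CM library 3 or WT CM library 3 or 4 (up to 0.121). The direction held in all 28 alternatives, with log2 fold changes of 0.45 to 0.75.

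Genes of cell division, picked after their values were seen, are given beside Foxm1. Ccnb1, the cyclin of mitotic entry, rose in KO by 1.01 ± 0.17 in control medium and 0.74 ± 0.16 in CM (adjusted p = 0.00449 and 0.018). Plk1 rose by 0.58 ± 0.14 and 0.57 ± 0.13 (adjusted p = 0.0265 and 0.0205), and the proliferation marker Mki67 by 0.34 ± 0.09 and 0.49 ± 0.09 (adjusted p = 0.0373 and 0.00456). Top2a passed in CM only (0.63 ± 0.10, adjusted p = 0.00236; 0.26 ± 0.10 and 0.123 in control medium), as did Aurkb (0.42 ± 0.10, adjusted p = 0.0218) and Cdc25b (0.32 ± 0.08, 0.0264), which were at -0.01 ± 0.10 and -0.05 ± 0.08 in control medium (0.952 and 0.7). Cenpf passed in control medium only (0.85 ± 0.17, adjusted p = 0.0104; 0.42 ± 0.16 and 0.135 in CM). In bulk libraries, more cells of a kind and more RNA per cell cannot be told apart, for these or any other levels given here.

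Sox4, a factor of progenitor cells and many tumours, was the most highly expressed non-Fox member per length (3.11 CPM per kb). It was at 17.7, 16.9, 19.1 and 21.5 CPM in WT control and 22.5, 22.7 and 25.1 in KO control libraries, and at 8.12, 7.76, 9.15 and 7.64 in WT CM and 10.8, 9.25 and 9.66 in KO CM libraries. The KO libraries lay above the WT libraries in both media, but neither difference was called (0.32 ± 0.09, adjusted p = 0.0618, and 0.27 ± 0.10, adjusted p = 0.123). In control medium Sox4 was called in 8 of 28 alternatives, among them DESeq2 (adjusted p = 0.0245) and WT libraries 1 and 2 alone (0.0124), but not with WT libraries 3 and 4 alone.

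The calls for KO depended on which WT libraries were used. With WT libraries 3 and 4 alone, 8 of 28 tested members were called in control medium (28.6%) and 7 in CM (25%), where 39.1% and 35.6% of all genes were called. Foxm1 was again the 1 member higher. Lower in both media were Foxj3 (-0.39 and -0.22), Foxk1 (-0.35 and -0.29), Foxp1 (-0.30 and -0.23), Foxp3 (-0.32 and -0.28) and Foxp4 (-0.32 and -0.70), with Foxj2 and Foxn2 in control medium and Hoxb4 in CM. With WT libraries 1 and 2 alone, Foxm1 and Sox4 were called higher in control medium and Foxm1 in CM, and no member was lower. In that setting 4.14% and 3.72% of all genes were called.

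Conditioned medium moved more of the members than the genotype did. In WT, 12 of 27 were called (4 higher, 8 lower; 44.4%), and 37.1% of all tested genes were called (19.3% higher, 17.9% lower). In KO, 9 of 27 were called (4 higher, 5 lower; 33.3%), and 38.0% of all genes were called (19.9% higher, 18.1% lower). With that scaling, the higher share of all calls fell from 51.9 to 35.8% in WT and from 52.4 to 34.8% in KO, with the median of all genes at -0.088 and -0.119. The members' medians were -0.19 and -0.16 beside -0.006 and -0.012 for all genes. The groups did not overlap for 6 members in WT and 16 in KO, where 33.8% and 54.6% of all genes did not overlap. Of the members reported here, Foxk2, Foxm1 and Foxq1 were called higher in both genotypes, Foxd2, Foxo3, Foxo4, Foxp1 and Sox4 lower in both, and Foxn2, Sox5 and Sox12 lower in WT.

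Sox4 fell in CM by 1.20 ± 0.09 on the log2 scale in WT (adjusted p = 2.7e-08) and by 1.25 ± 0.10 in KO (1.13e-07), to less than the lowest control library in all 7 CM libraries. Foxm1 rose by 1.5 ± 0.12 in WT (8.02e-08) and 1.52 ± 0.14 in KO (3.62e-07). Mki67 and Top2a rose beside it in WT (1.66 ± 0.08 and 1.39 ± 0.09). These 4 calls for Sox4 and Foxm1 held in all 28 alternatives.

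**Figure D4:**
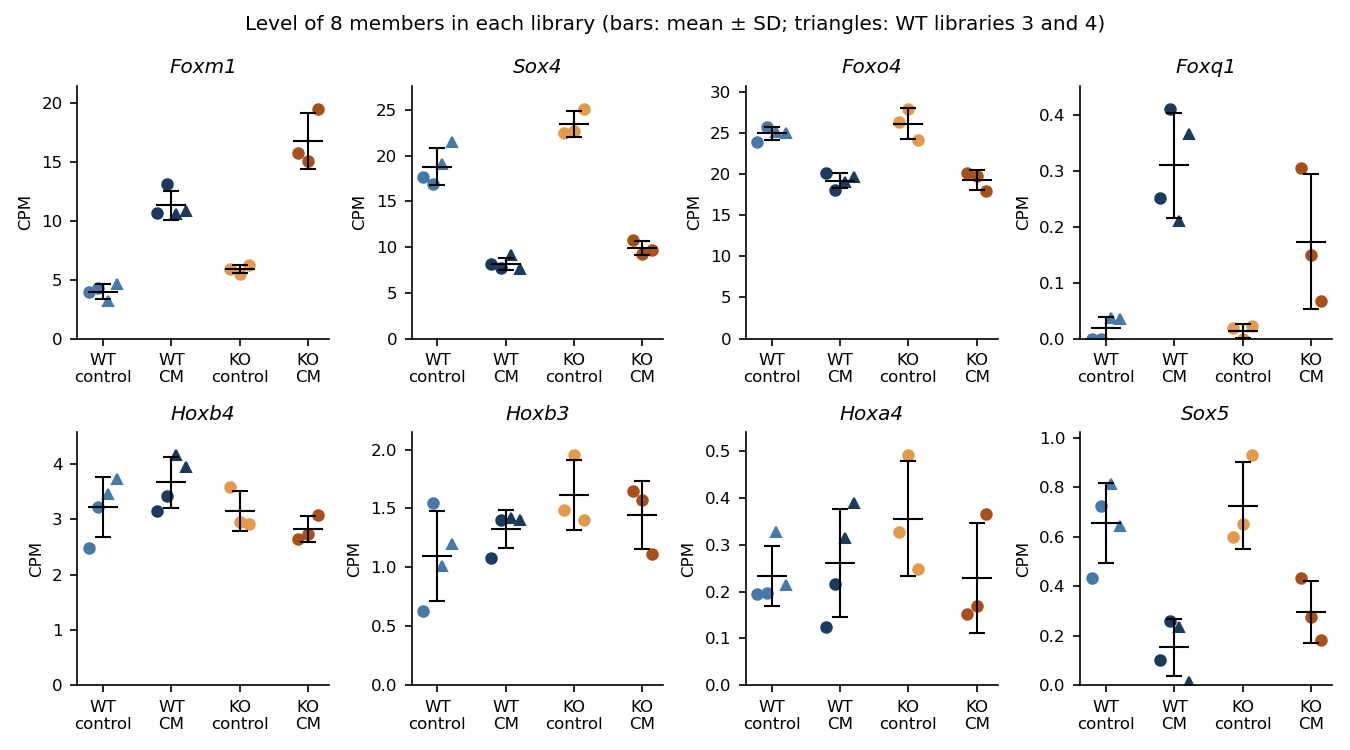
CPM of 8 members in each library by group, with mean and SD; triangles mark WT libraries 3 and 4. Foxm1 is higher and Sox4 lower in every CM library than in every control library of the same genotype, while Hoxb4, Hoxb3 and Hoxa4 overlap between control medium and CM in both genotypes.

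Foxq1, a factor of epithelial cells, was nearly absent in control medium and present in CM. It had 0, 0, 3 and 3 counts in WT control, 10, 19, 16 and 30 in WT CM, 1, 0 and 1 in KO control and 12, 7 and 4 in KO CM libraries. All 7 CM libraries lay above all control libraries in CPM. The ratio of CM to control medium was 13.5 in WT (95% counting interval 5.91 to 37.9) and 12.2 in KO (3.03 to 107). The differences were called by edgeR (adjusted p = 0.000313 and 0.0103). Foxq1 passed the filter on low values only through its CM libraries, as no control library exceeded 0.0364 CPM. It was thus tested because it was high in CM, and the calls add little to the counts. Its level stayed low, at most 0.41 CPM.

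Of the FOXO factors, which respond to growth factor signalling, Foxo3 and Foxo4 fell and Foxo1 did not pass. Foxo4 was at 23.9, 25.7, 25.1 and 25 CPM in WT control, 20.1, 18.1, 19.0 and 19.6 in WT CM, 26.3, 27.9 and 24.1 in KO control and 20.1, 19.8 and 17.9 in KO CM libraries. It fell by 0.38 ± 0.06 in WT and 0.44 ± 0.08 in KO (adjusted p = 0.000218 and 0.000223), with no overlap. Foxo3, the member with the highest level per length (12.2 CPM per kb), was at 34.2, 39.6, 38.5 and 40.6 CPM in WT control, 30.9, 34.8, 29.2 and 30.8 in WT CM, 38.4, 41.3 and 37.3 in KO control and 35.1, 30.7 and 33.9 in KO CM libraries. It fell by 0.28 ± 0.07 and 0.23 ± 0.08 (adjusted p = 0.00474 and 0.0365). The KO call was kept in 22 of 28 alternatives and lost without KO CM library 2 or 3 or KO control library 1 or 2, among others (adjusted p up to 0.418). Foxo1 was lower in CM by like amounts (-0.20 ± 0.07 and -0.21 ± 0.09) and did not pass (adjusted p = 0.0504 and 0.073). With the replicate number of the WT libraries as a block it was called in both genotypes (adjusted p = 0.0249 and 0.041). The KO libraries have no block in that fit: the KO estimate stayed at -0.21, with an SE of 0.08.

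Foxp1, which holds back monocyte differentiation, was at 102.4, 100.7, 128.3 and 118.3 CPM in WT control, 76.2, 79.9, 95 and 93.2 in WT CM, 99.7, 102.2 and 98.3 in KO control and 81, 75.7 and 84.1 in KO CM libraries. It fell by 0.38 ± 0.08 and 0.32 ± 0.10 (adjusted p = 0.00171 and 0.0166). Foxk2, a repressor of autophagy and metabolic genes, was at 25.8, 29.3, 24.6 and 25.2 CPM in WT control, 30.2, 31.0, 30 and 29.3 in WT CM, 26.2, 23.6 and 24.8 in KO control and 35.4, 31.5 and 31.8 in KO CM libraries. It rose by 0.20 ± 0.07 and 0.40 ± 0.08 (adjusted p = 0.0255 and 0.000572). The WT groups touched at 29.3 CPM, and the WT call was kept in 18 of 28 alternatives.

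Of the weaker members, Sox5 was at 0.434, 0.724, 0.814 and 0.643 CPM in WT control, 0.1, 0.259, 0.236 and 0.0122 in WT CM, 0.6, 0.649 and 0.928 in KO control and 0.431, 0.276 and 0.183 in KO CM libraries. It fell by 2.14 ± 0.50 in WT (adjusted p = 0.00297), and was lower by 1.32 ± 0.55 in KO without passing (0.0719). With the block of the WT libraries, which leaves the KO estimate at -1.32, the adjusted p in KO was 0.0291. Foxd2 was at 0.369, 0.45, 1.07 and 0.762 CPM in WT control, 0.351, 0.366, 0.394 and 0.317 in WT CM, 0.6, 0.614 and 0.521 in KO control and 0.304, 0.128 and 0.116 in KO CM libraries. It fell by 1.71 ± 0.45 in KO (adjusted p = 0.00694) and by 0.92 ± 0.34 in WT (0.0458). The WT call of Foxd2 was kept in 13 of 27 alternatives, with log2 fold changes of -1.36 to -0.20. Tbx6, a factor of the presomitic mesoderm, was at 1.04, 1.12, 0.692 and 1.12 CPM in WT control, 0.577, 1.03, 0.578 and 0.67 in WT CM, 0.873, 1.03 and 1.04 in KO control and 0.279, 0.702 and 0.681 in KO CM libraries, and its differences in CM did not pass (adjusted p = 0.199 in WT and 0.071 in KO, the second 0.0444 with the block). Lhx2 was at 0.782, 1.33, 1.65 and 1.36 CPM in WT control, 0.852, 0.97, 1.88 and 1.22 in WT CM, 1.11, 1.23 and 1.09 in KO control and 1.55, 1.02 and 1.31 in KO CM libraries, with overlap in every comparison.

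Whether the response to CM differed between the genotypes was tested as an interaction. It was called for 0 of 27 members and 0 of 13311 genes by edgeR, with 0 members and 1045 genes at an unadjusted p below 0.05, while DESeq2 called 84 genes and 0 members. The difference in response was 0.02 ± 0.19 for Foxm1 and -0.04 ± 0.14 for Sox4. The smallest adjusted p among the members was 0.668, for Foxk2 (0.20 ± 0.10).

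For 4 tested members over 90% of the counts lay in 1 exon, so their values describe that exon and not the whole transcript. Foxp3, the master factor of regulatory T cells, was measured at 5.98 to 8.88 CPM in all libraries. Of its 5954 counts, 98.5% lay in the last exon of 2344 bp (chrX:7592900-7595243, plus strand, mm10), which overlaps the minus-strand gene Ccdc22 (45.4 CPM) by 590 bp, and all its other exons together had 90. All 703 counts of Nkx6-2, a neural factor (0.609 to 1.09 CPM), lay in an exon of 246 bp (chr7:139579376-139579621, minus strand) that lies within Inpp5a on the plus strand, and its other exons had none. Of the Sox15 counts, 91.5% lay in an exon of 275 bp that overlaps Mpdu1 by 31 bp, and of the 259 counts of Pax6, the eye and forebrain factor, 97.7% lay in an exon of 2141 bp. Pax6 was at 0.195, 0.215, 0.364 and 0.405 CPM in WT control, 0.15, 0.108, 0.341 and 0.353 in WT CM, 0.309, 0.228 and 0.34 in KO control and 0.431, 0.447 and 0.432 in KO CM libraries. Its difference between genotypes in CM was not called (adjusted p = 0.252).

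**Figure D5:**
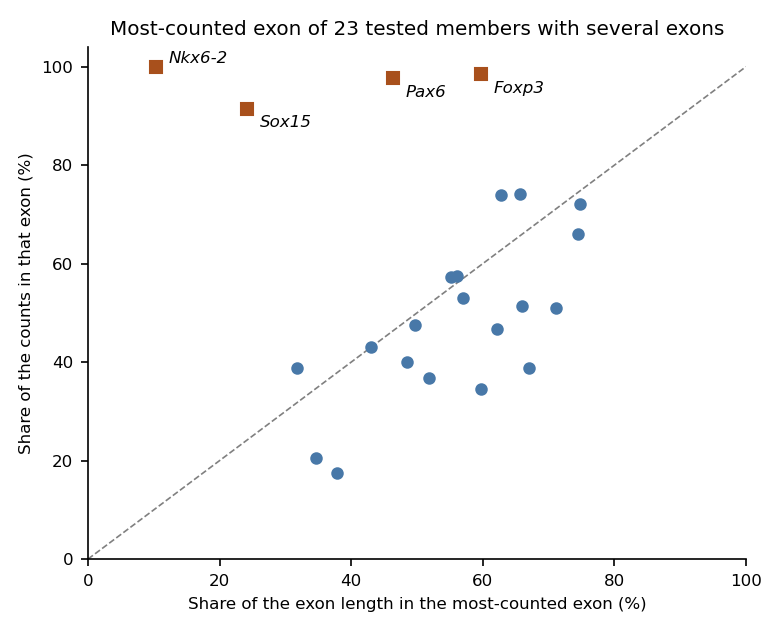
Share of a gene's counts in its most-counted exon against the share of its exon length in that exon, for the 23 tested members with more than 1 exon; the dashed line marks equal shares. Nkx6-2, Sox15, Pax6 and Foxp3 lie above 90% of counts with 10.4 to 59.7% of the length.

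Genes outside these families were counted from lists of related genes, which were also set with earlier results of these data known. Of 145 other developmental factors (such as Cdx2, Myod1, Neurod1, Hand2 and Zic1), 85 had no count and 10 were tested. Between KO and WT, none of the 10 was called in control medium, and in CM Pou3f1 was called lower in KO (-1.34 ± 0.33, adjusted p = 0.0314). Of 10 tested homeodomain cofactors, the Meis, Pbx and related proteins that bind DNA with Hox proteins, none was called in control medium and Pbx4 was higher in CM (1.06 ± 0.20, adjusted p = 0.0069). Under CM 6 of the 10 fell in WT and none rose, and in KO 5 fell and Pknox1 rose (0.34 ± 0.09, adjusted p = 0.00921), beside 17.9 and 18.1% of all genes called lower. Of 14 tested PRC2 genes none was called between KO and WT in control medium. Within CM, Rbbp7 was called higher in KO (0.20 ± 0.05, adjusted p = 0.0415) and Ezh2 itself lower in KO. Ezh1, the other catalytic subunit, was at 84.2 CPM in WT CM and 85.6 in KO CM (0.02 ± 0.05). Of 23 PRC1 genes 3 were called in control medium, with Cbx6 the largest (0.68 ± 0.13, adjusted p = 0.00869), and 2 in CM.

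Among 47 other known Polycomb targets that encode no factor of these families, 18 had no count and 14 were tested. The silent ones included the morphogens Shh, Bmp4 and Wnt5a. In control medium 2 were called higher and 2 lower, and in CM 2 higher and 0 lower, beside 5.49 and 4.61% of all genes called. As this list was set with earlier results known, these counts are no test of Polycomb targets as a class. Ccnd2, a G1 cyclin, rose 1.97-fold in control medium (0.97 ± 0.12, adjusted p = 0.000241) and 1.93-fold in CM (0.95 ± 0.11, 0.000303), with no overlap. Cdkn1a was higher by 0.21 ± 0.05 and 0.25 ± 0.05. Cdkn1c and Igf2bp2 fell in control medium (-0.72 ± 0.20 and -0.45 ± 0.08). The median of the 14 was -0.08 in control medium and -0.23 in CM.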

How the data were processed

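RNA of 14 macrophage cultures was sequenced from stranded libraries as paired reads, per the labels' protocols. The authors deposited raw counts per exon entry, and their processing notes name HISAT2 and the build mm10; the version, counting tool, annotation and strand setting are not given in the sources used here. The deposited table holds 427386 entries. Of these, 196941 were repeats within a gene and were dropped, and counts of the 230445 distinct exons were summed per gene. Whether a fragment over several exons was counted in each is not given. No entry lacked a gene name. The members and the gene lists were chosen with earlier results of these data known.

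The test was that of edgeR 4.0.16, run in R 4.3.3 (TMM, filterByExpr with a minimum count of 10 and total of 15, robust quasi-likelihood F test, 1 mean per group over all 14 libraries), with Benjamini-Hochberg adjustment over 13311 genes and calls below 0.05. CPM are counts per M of TMM-scaled totals. Detection at equal depth is the expectation under binomial thinning. Counting intervals are exact at 95%, and the floor is 3 counts. The fit was also run on simulated counts with known changes. These held no split between WT libraries, so they cannot show how the fit behaves with the split seen here. Members were named when called for genotype, among the 8 smallest p for CM, among the 2 highest per length in a family, or one-sided in detection. Genes of the dividing cell and Hoxc6 were added after their values were seen. Alternatives were DESeq2 1.42.0 (also its size factors), limma 3.58.1 voom, library totals, other filters and thresholds, only the compared groups, the replicate block, the library batch, pairs of WT libraries, other exon sums, and leaving out each library. The batch is inferred from depth and exon use, not from the labels. WT libraries of the same number correlated between media (0.51 to 0.68), over the limit of 0.1 set for pairing. KO libraries (-0.11 to 0.05) did not. Libraries of different number were not correlated, and WT libraries 1 and 2 stood apart from 3 and 4 in both media. The WT correlation therefore cannot tell pairs of libraries from that split. Some members are counted in the totals but not reported here by name. Promoters are from RefSeq, GRCm38.p6.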

Additional observations from a re-analysis of the deposited data

Results flagged for a closer look

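A gap test (Dixon) on the 27 tested members and on the number of members detected, within each group of 4 libraries (56 groups checked), picked out 3 values, where chance alone picks about 1 in 20 groups. Foxm1 was at 13.1 CPM in WT CM library 2, beside 10.6 to 10.8 in the other 3. Hoxa4 was at 0.328 CPM in WT control library 3, beside 0.195 to 0.214. Hoxb3 was at 1.08 CPM in WT CM library 1, beside 1.4 to 1.42. Groups of 3 libraries were not checked.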

How the results depend on the processing

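No called difference changed its direction under any alternative that was run. For KO in control medium, where 1 member was called, 2 were called with DESeq2, with library totals alone, with WT libraries 1 and 2 alone, with a term for the library batch, and at an adjusted p below 0.10. There were 3 with the most-counted exon of each gene, 8 with limma-voom, 8 with WT libraries 3 and 4 alone, and 0 with only the groups compared or at an adjusted p below 0.01. The replicate block, over all libraries or within the WT libraries, gave 2 there and moved no other count by over 1.5 times (CM in WT 14 and 17, CM in KO 9 and 12). Whether the WT libraries are pairs is not known. Over all libraries the second call was Sox4 (adjusted p = 0.0446). Within WT it was Hoxb3 (0.0401), but for KO against WT that fit uses the level of WT library 1 and not the WT mean. Under CM in WT the block within WT added Foxj2, Foxj3, Foxk1, Foxo1 and Foxp4 (0.000442 to 0.0302), and in KO Foxo1, Sox5 and Tbx6 (0.0291 to 0.0444). The KO libraries have no block in that fit, so their estimates stayed near those of the main fit. For KO in CM, where 1 was called, there were 3 with the batch term, limma-voom or the most-counted exon, 7 with WT libraries 3 and 4 alone and 0 below 0.01. The batch term marks WT libraries 3 and 4 alone. In both media it thus sets KO against the level of WT libraries 1 and 2 and cannot correct KO for a batch. Below 0.01, CM calls fell from 12 to 7 in WT and from 9 to 5 in KO. Leaving out each library in turn gave 0 to 2 calls for KO in control medium, 0 to 1 for KO in CM, 7 to 13 for CM in WT (7 without WT CM library 2 or WT control library 3), 7 to 10 for CM in KO and 0 for the interaction. The difference in members detected, KO minus WT, was -0.4 in control medium (-2.2 to 2.0 with a library left out) and -3.8 in CM (-6.0 to -2.2). Library totals alone moved the median of all genes by up to -0.119 in CM against control medium and the share of higher calls for KO in control medium from 52.0 to 76.6%; the members' called directions held. The causes were not tested. Single results kept their side of the threshold in 1029 comparisons with an alternative, lost it in 83 and gained it in 20. Over all genes, 731 calls for KO in control medium became 1501 with DESeq2, 4737 with limma-voom, 5271 with WT libraries 3 and 4 alone and 304 with only the groups compared, and 614 in CM became 1226, 1794, 4795 and 467. Depth limits the 144 members without a test, of which 83 had no count.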
